A study of Sus scrofa with 24 samples.

Results

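The 6 genes described here form the route by which loin muscle takes up fatty acids and switches its fuel from glucose to fat: LPL, ANGPTL4, FABP3, PDK4, UCP3 and PPARGC1A. They were chosen by gene symbol, and every probe set (the group of short probes that reports 1 transcript) with 1 of these symbols was used. This gave 10 of the 23999 probe sets that were not array controls. LPL, ANGPTL4, PDK4 and UCP3 had 2 probe sets each, called the first and the second below, FABP3 and PPARGC1A had 1, and all 10 were among the 14399 probe sets bright enough to be tested. The first is Ssc.16335.1.S2_at for LPL, Ssc.8980.1.A1_at for ANGPTL4, Ssc.1121.1.S1_at for PDK4 and Ssc.174.1.S2_at for UCP3. The second is Ssc.16335.1.S1_at for LPL, Ssc.17345.1.S1_at for ANGPTL4, Ssc.10131.1.A1_at for PDK4 and Ssc.174.1.S1_at for UCP3.

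Total RNA of longissimus dorsi, the long muscle of the loin, was hybridised to porcine Affymetrix arrays, 1 array for each of 24 pigs from a Landrace × Large White × Duroc cross. The feed held 3.0% of soybean oil, olive oil, coconut oil or beef tallow, and each fat was given to 3 barrows (castrated males) and 3 gilts (young females). The diets began at about 71 kg and 130 days of age, so all groups shared the breed cross, the starting age and the amount of added fat. The number in a sample's title names the pig, and because gilts hold 1 to 12 and barrows 13 to 24, sex cannot be told apart from any step done in that order. The pens of the sampled pigs were not used here, so p-values measure the spread between pigs as if pens did not matter.

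Fatty acids reach muscle bound to albumin or inside triglyceride particles. Lipoprotein lipase, the product of LPL, releases them from these particles on the capillary wall, where GPIHBP1 holds the enzyme and ANGPTL4 inactivates it. Inside the fibre FABP3 carries fatty acids through the cytosol. PDK4 phosphorylates and shuts pyruvate dehydrogenase, the gate through which glucose carbon enters the mitochondrion, and UCP3 is a carrier of the inner mitochondrial membrane that rises in human and rodent muscle when fatty acids are plentiful. PPARGC1A encodes PGC-1alpha, a coactivator of mitochondrial and fatty acid oxidation genes that responds to exercise, cold and fasting in rodents.

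The markers of the labelled tissue were bright: CKM, the muscle creatine kinase, had a median signal of 45640, and 6 of 8 muscle fibre markers were on the array and tested. Adipocyte genes were also measurable, with median signals of 10120 for FABP4 and 1614 for ADIPOQ. Any 2 arrays correlated with r from 0.899 to 0.941 on log2 signals. Pigs 11, 16 and 12 had the lowest mean correlation with the other arrays (0.912, 0.915 and 0.917), and the results below are given without them where this ended a call. Signals below are the deposited linear intensities, and differences are on the scale of log2(signal + 1), tested with limma with Benjamini-Hochberg adjustment over all 14399 probe sets and a threshold of 0.05. A signal is not comparable between probe sets, so the genes are not ranked by level.

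**Figure D1:**
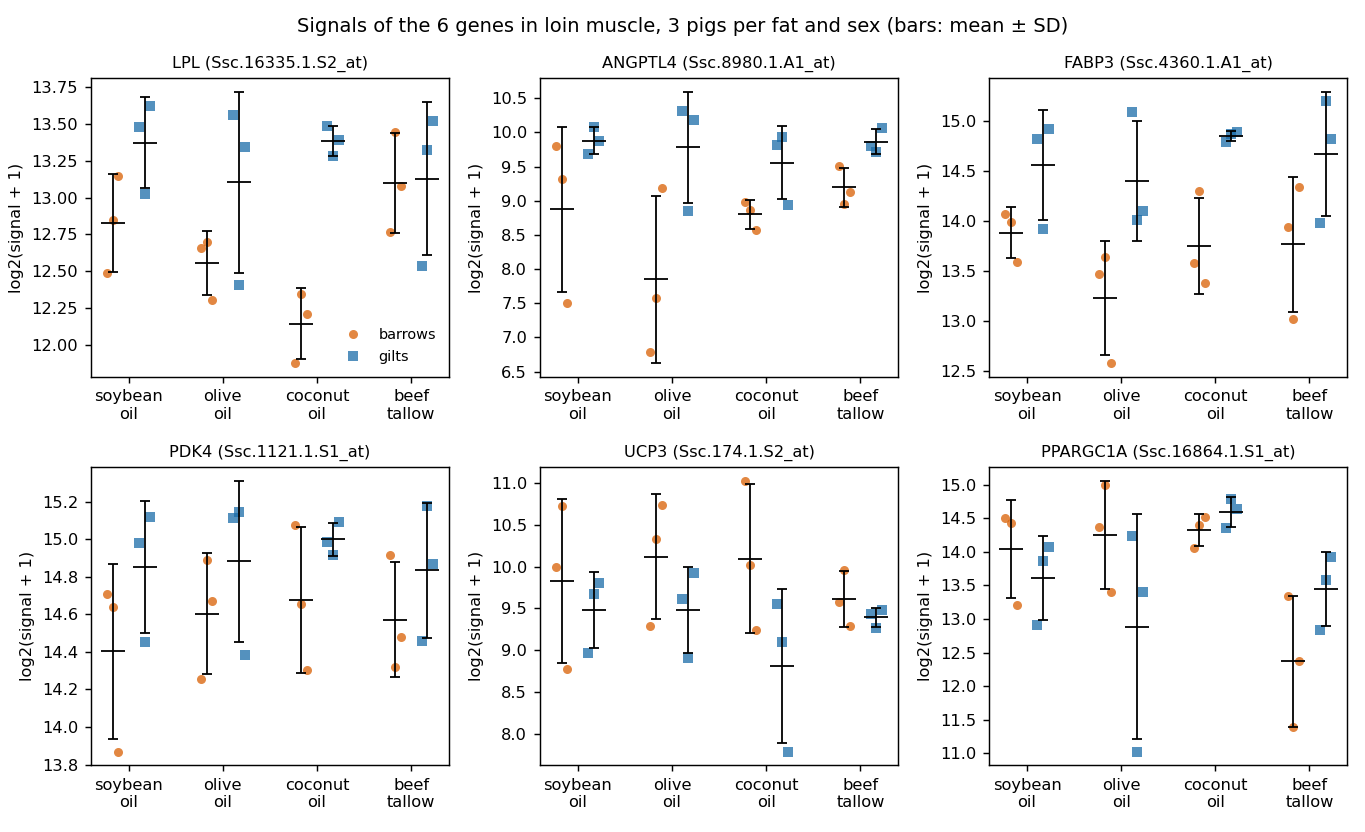
Signals of the 6 genes in each pig, as log2(signal + 1) on the vertical axis, by dietary fat along the horizontal axis, with barrows (circles) left of gilts (squares) and bars for the mean ± SD of 3 pigs. FABP3 and ANGPTL4 sit lower in barrows than in gilts with all 4 fats by their means, LPL has its lowest mean in coconut oil barrows, and PPARGC1A of the coconut oil pigs forms a narrow high band.

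Between the sexes, calls among the 6 genes fell on those of the uptake end of the route. Of the 10 member probe sets, 4 fell in barrows relative to gilts and 0 rose, and they belong to 3 genes: LPL, ANGPTL4 and FABP3. Over all tested probe sets, 687 differed between barrows and gilts (4.77%), of which 326 were higher (2.26%) and 361 lower (2.51%) in barrows. The share of lower calls was 52.5% with the deposited scaling and 37.9% after each array was centred on its median. The median difference of the 10 member probe sets was -0.46, against -0.02 over all tested probe sets. The genes of the fuel switch itself, PDK4, UCP3 and PPARGC1A, did not pass. Of the 3 genes with a call, only FABP3 kept it with no filter on dim probe sets and without pigs 11, 16 and 12. In a wider list of fatty acid uptake and activation, given below, no tested gene passed.

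FABP3, the fatty acid carrier of the muscle cytosol, had signals from 6133 to 20781 with a median of 12586 in the 12 barrows, and from 15575 to 37634 with a median of 29083 in the 12 gilts. The ranges overlapped, but all 12 barrows lay below the gilt mean. The difference was -0.96 ± 0.19 (SE), with a 95% interval of -1.37 to -0.55, so the barrow signal was 0.514 of the gilt signal (limma adjusted p = 0.0088). Olive oil barrows, at 11342, 12796 and 6133, all lay under the olive oil gilts, at 34857, 16490 and 17595. Coconut oil barrows, at 12238, 20156 and 10711, likewise lay under the coconut oil gilts, at 28471, 29983 and 30390. Ranges of 3 and 3 pigs that do not overlap were common, at 17.2% of tested probe sets between the sexes with olive oil and 19% with coconut oil. With soybean oil and with beef tallow the lowest gilt (15575 and 16225) fell inside the barrow range. FABP3 passed in all 8 alternatives and in all 24 runs that left out 1 pig.

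LPL was measured by 2 probe sets, which followed each other over the 24 pigs (r = 0.932). On the first probe set the signal ran from 3759 to 11132 with a median of 6563 in barrows, and from 5424 to 12586 with a median of 10547 in gilts. On the second probe set it ran from 1463 to 5486 with a median of 2938 in barrows, and from 2131 to 6403 with a median of 5068 in gilts. The ranges overlapped on both, and 11 of 12 barrows lay below the gilt mean on each.

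LPL differed between barrows and gilts by -0.59 ± 0.14 on the first probe set (limma adjusted p = 0.0235) and by -0.71 ± 0.17 on the second probe set (adjusted p = 0.0183). Both held in all 24 runs that left out 1 pig, but neither passed without pigs 11, 16 and 12, where the differences were -0.49 and -0.63 (adjusted p = 0.102 and 0.0761). With no filter on dim probe sets the adjusted p was 0.0616 and 0.0517. The mean log2 signals of barrows and gilts were close with beef tallow, at 13.10 and 13.13 on the first probe set. On the second they were 12.02 and 11.97. With coconut oil they were 12.14 and 13.39 on the first probe set and 10.78 and 12.28 on the second. Soybean oil gave 12.83 and 13.37 on the first probe set, and olive oil 12.56 and 13.10. The test of fat by sex, given below, did not pass.

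ANGPTL4, the inhibitor of lipoprotein lipase, moved in the same direction as the enzyme it inhibits. On the first probe set it had signals from 109 to 889 with a median of 498 in barrows, and from 460 to 1269 with a median of 916 in gilts. The ranges overlapped, and 11 of 12 barrows lay below the gilt mean. The difference was -1.09 ± 0.27 (adjusted p = 0.023), so the gilt signal was 2.13 times the barrow signal. Without pigs 11, 16 and 12 the difference was -1.08 (adjusted p = 0.0661), and with no filter the adjusted p was 0.0626.

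The second ANGPTL4 probe set followed the first over pigs (r = 0.932). It ran from 142 to 742 with a median of 452 in barrows, and from 392 to 1238 with a median of 780 in gilts. Its difference of -0.79 ± 0.25 did not pass (limma adjusted p = 0.0751). It passed in 1 of 8 alternatives, array weights (adjusted p = 0.0371), and in 2 of 24 runs that left out 1 pig.

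PDK4, UCP3 and PPARGC1A are given as values. PDK4 on the first probe set had medians of 25613 in barrows and 32397 in gilts, a difference of -0.33 with a 95% interval of -0.62 to -0.04 (adjusted p = 0.181). On its second probe set the difference was -0.32, with an interval of -0.72 to 0.07. UCP3 had the opposite sign, with medians of 1009 in barrows and 702 in gilts on the first probe set. Its difference was 0.62, with an interval of 0.09 to 1.15 (adjusted p = 0.16), and on the second probe set it was 0.29, with an interval of -0.30 to 0.87. PPARGC1A had medians of 19023 in barrows and 15241 in gilts, and its interval of -0.54 to 0.76 leaves room for a change in either direction.

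**Figure D2:**
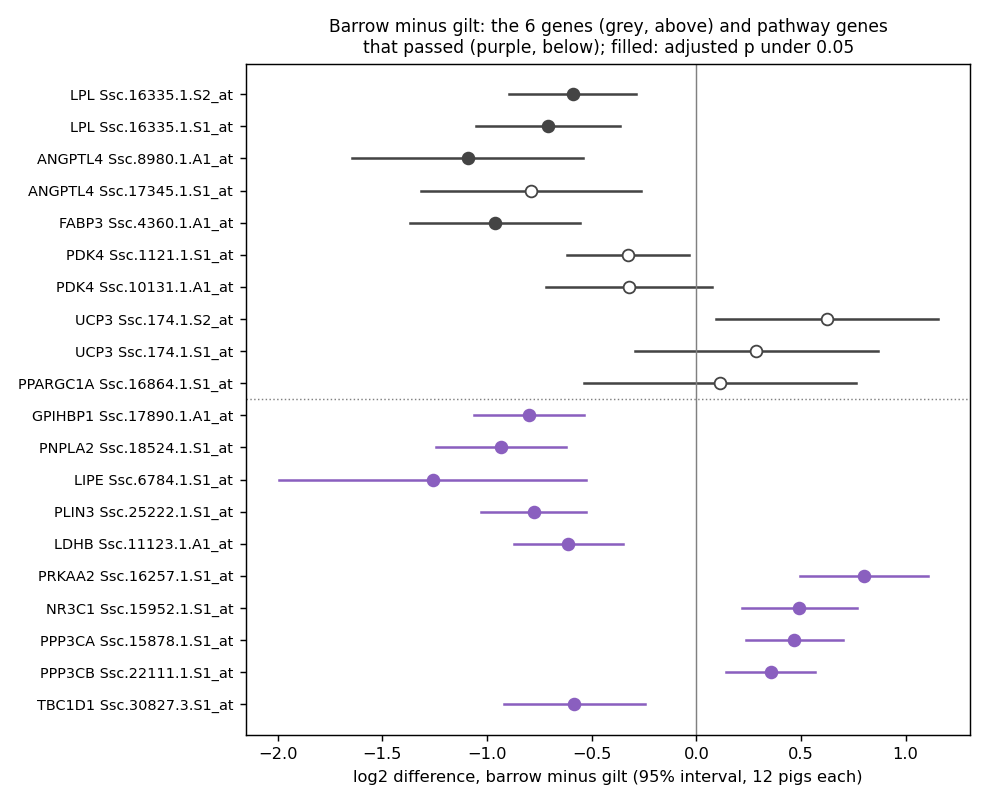
Log2 difference between barrows and gilts (horizontal axis, 12 pigs each) with its 95% interval, for the 10 member probe sets (grey, above) and the other pathway genes that passed (purple, below); filled symbols have an adjusted p under 0.05. Of the 10 member probe sets 7 lie left of 0, and the 4 filled ones are both of LPL, FABP3 and the first of ANGPTL4; GPIHBP1, PNPLA2, PLIN3 and LIPE lie left of 0 too, while PRKAA2 lies to the right at 0.80.

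Scores of markers of other cell types and of fibre types also differed between barrows and gilts by their means, though few of their genes passed, and their part in these results was not tested. In whole tissue, fewer cells of a type and less RNA per cell cannot be told apart. The adipocyte score, the mean log2 signal of 9 tested marker genes centred over all pigs, averaged -0.21 in barrows (-0.86 to 0.74) and 0.21 in gilts (-0.58 to 1.15), and summed adipocyte signals ran from 9556 to 31942 in barrows and from 11382 to 49377 in gilts. Of these 9 markers, LIPE passed and 6 had negative differences. Of 7 slow fibre markers none passed and all 7 had small negative differences between barrows and gilts (median -0.15). The 3 fast fibre markers had positive ones (median 0.25), led by MYH2 at 0.79 (adjusted p = 0.0705). The score of 10 endothelial markers averaged -0.08 in barrows and 0.08 in gilts. The muscle fibre score hardly differed, at 0.003 in barrows and -0.003 in gilts.

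Other genes of the route were counted in 9 lists, beside the 4.77% of all tested probe sets that differed between barrows and gilts. The lists were chosen with earlier results of these data known, so their counts are a description and do not test a list. In the lipoprotein lipase system 1 of 3 tested genes passed: GPIHBP1, the capillary anchor of the enzyme. It had signals from 308 to 540 with a median of 379 in barrows, and from 372 to 984 with a median of 686 in gilts. Its difference of -0.80 ± 0.13 (adjusted p = 0.00164) held in all 8 alternatives and in all 24 runs that left out 1 pig. The enzyme, its anchor and its inhibitor therefore each had a probe set that fell in barrows relative to gilts.

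In droplet lipolysis, the release of fatty acids from stored triglyceride, 3 of 8 tested genes fell and 0 rose. PNPLA2, the first lipase of the cascade, had medians of 3908 in barrows and 7222 in gilts, a difference of -0.93 ± 0.15 (adjusted p = 0.0017). PLIN3, a droplet coat protein, had medians of 160 in barrows and 249 in gilts, a difference of -0.78 ± 0.12 (adjusted p = 0.00139). LIPE, hormone-sensitive lipase and itself a marker of adipocytes, differed by -1.26 ± 0.35 (adjusted p = 0.0444) but passed in only 4 of 24 runs that left out 1 pig, and without pigs 11, 16 and 12 its adjusted p was 0.143. PNPLA2 and PLIN3 passed in every one of those runs.

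In the pyruvate dehydrogenase list 1 of 11 tested genes fell and 0 rose, and in the glucose uptake list 1 of 8 fell, counts too small to set either list apart from that share. The first was LDHB, the heart-type subunit of lactate dehydrogenase, with medians of 10811 in barrows and 17432 in gilts and a difference of -0.61 ± 0.12 (adjusted p = 0.0088). The other was TBC1D1, a regulator of glucose transporter traffic, at -0.58 ± 0.16 (adjusted p = 0.0422). TBC1D1 did not pass without pigs 11, 16 and 12 (limma adjusted p = 0.0995) or with no filter (0.0991). It passed in 7 of 24 runs that left out 1 pig.

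Of 15 tested genes of signals upstream of the fuel switch, several of which act on PPARGC1A, 4 rose in barrows relative to gilts and 0 fell. PRKAA2, the muscle catalytic subunit of the energy sensor AMPK, had signals from 1989 to 3936 with a median of 2873 in barrows, and from 914 to 2356 with a median of 1601 in gilts, a difference of 0.80 ± 0.15 (adjusted p = 0.00475). The calcineurin subunit genes PPP3CA and PPP3CB rose by 0.47 (adjusted p = 0.0209) and 0.35 (adjusted p = 0.0472), and NR3C1, the glucocorticoid receptor, by 0.49 (adjusted p = 0.0366). PRKAA2 and PPP3CA still passed without pigs 11, 16 and 12, while PPP3CB and NR3C1 did not (adjusted p = 0.118 and 0.13). With no filter PPP3CA, PPP3CB and NR3C1 did not pass (limma adjusted p = 0.0538, 0.102 and 0.0869). PRKAA2 and PPP3CA passed in all 24 runs that left out 1 pig, PPP3CB in 5 and NR3C1 in 10.

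No gene passed in 4 other lists between barrows and gilts. These were fatty acid uptake and activation (11 tested genes) and mitochondrial fatty acid entry with its brake (5). The others were uncoupling and carrier proteins (6) and PGC-1 partners (10). All 5 tested genes of the list of entry and its brake had negative differences. Among them was CPT1A, which makes fatty acids ready for entry, at -0.56 (limma adjusted p = 0.0774). The muscle form, CPT1B, was at -0.57 (adjusted p = 0.0885). CRAT, the carnitine acetyltransferase, was at -0.12.

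**Figure D3:**
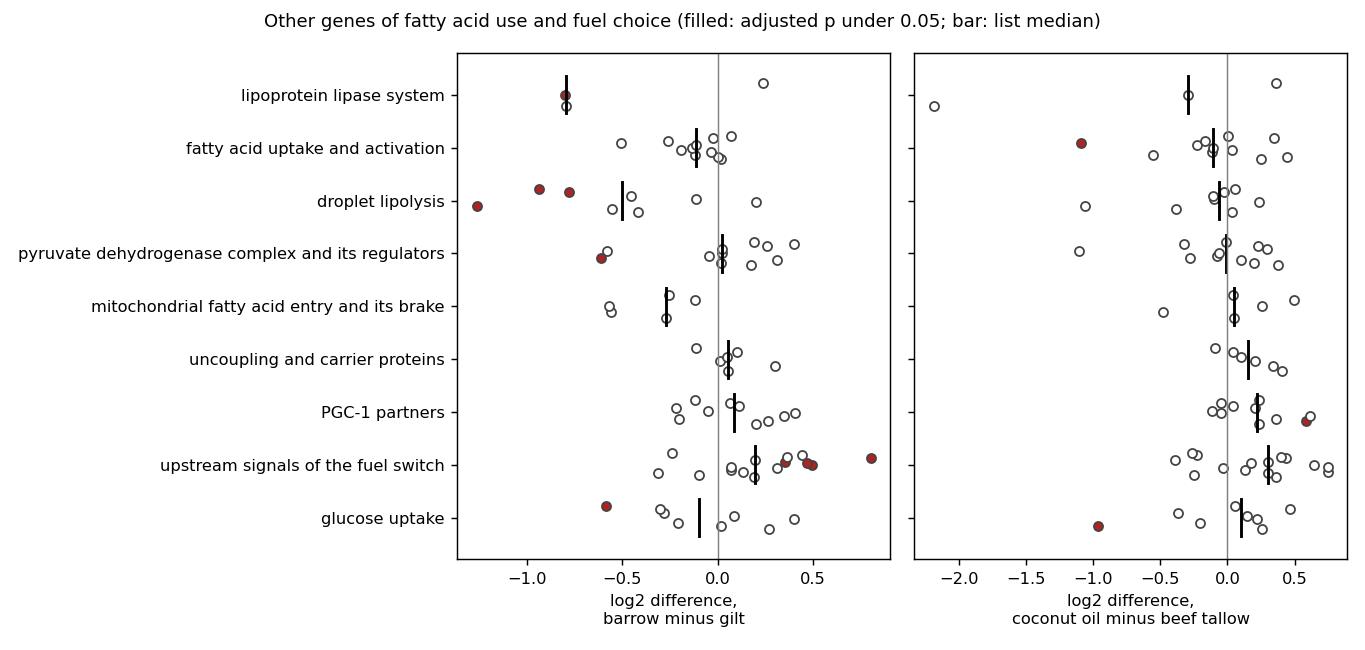
Log2 differences (horizontal axes) of the other genes of fatty acid use and fuel choice in 9 lists (rows), between barrows and gilts (left) and between coconut oil and beef tallow (right). Each point is a gene, filled where adjusted p was under 0.05, and bars are list medians; between the sexes 3 of 8 genes of droplet lipolysis passed as lower in barrows (list median -0.50) and 4 of 15 upstream signals as higher (list median 0.19).

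The dietary fats were compared next. In the test over all 4 fats, 0 of 10 member probe sets passed, as did 0 of all 14399 (0%). An unadjusted p under 0.05 in limma was found for 1 member probe set and for 1676 of all 14399. Among pairs of fats, probe sets passed only between coconut oil and beef tallow: 161 (1.12%), of which 37 were higher (0.257%) and 124 lower (0.861%) with coconut oil. None of the 10 member probe sets was among them. The share of lower calls in that pair was 77% with the deposited scaling and 38.4% after centring on the median, which moved the median of all differences by 0.13.

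Among the pairs of fats over both sexes, PPARGC1A had the smallest adjusted p of the members. It had 16978, 21716 and 23501 in coconut oil barrows and 20875, 28387 and 25500 in coconut oil gilts, against 10430, 2700 and 5308 in beef tallow barrows and 7329, 12231 and 15495 in beef tallow gilts. The lowest coconut oil pig (16978) lay above the highest beef tallow pig (15495). Such a gap between 6 and 6 pigs was found in 256 of the tested probe sets (1.78%). The difference was 1.55 ± 0.44, with a 95% interval of 0.63 to 2.47, so the coconut oil signal was 2.93 times that of beef tallow. It did not pass (limma adjusted p = 0.0708). It passed in 1 of 8 alternatives, array weights (limma adjusted p = 0.0209), which raised the calls over all probe sets from 161 to 1264. Of 24 runs that left out 1 pig it passed in 1, without pig 7 (adjusted p = 0.0298). That pig was an olive oil gilt, in neither group of this pair, with the lowest PPARGC1A signal of all pigs (2081). The adjusted p reached 0.15 over the alternatives and 0.158 over the runs that left out 1 pig.

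The medians of the remaining fats lay between, and their ranges overlapped both. PPARGC1A ran from 7673 to 23129 with a median of 16120 in 6 soybean oil pigs, from 2081 to 32758 with a median of 15103 in 6 olive oil pigs, from 16978 to 28387 with a median of 22609 in coconut oil pigs and from 2700 to 15495 with a median of 8880 in beef tallow pigs. Against beef tallow, soybean oil differed by 0.92 with an interval of 0.003 to 1.84 and olive oil by 0.66 with an interval of -0.26 to 1.58. Against coconut oil, olive oil differed by -0.89 with an interval of -1.81 to 0.03. Neighbouring fats in the order coconut oil, soybean oil, olive oil, beef tallow did not differ beyond the spread between pigs. The coefficient of variation was 17.3% with coconut oil, against 40.5% with soybean oil, 65.9% with olive oil and 52.8% with beef tallow.

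**Figure D4:**
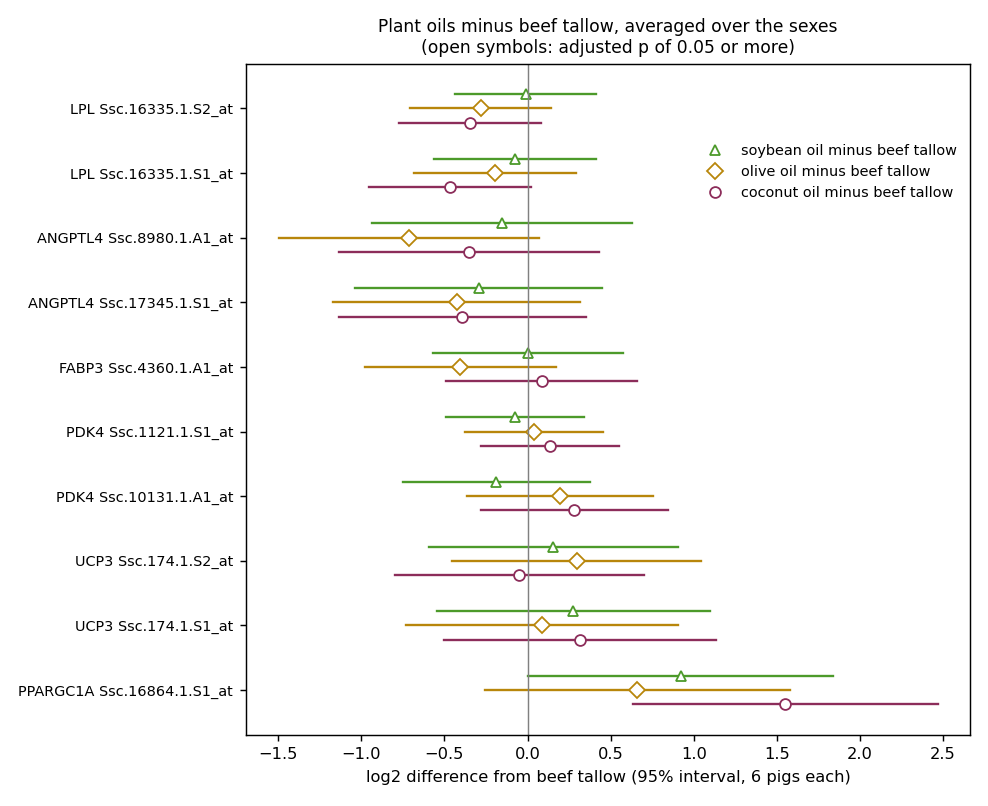
Log2 difference of soybean oil (triangles), olive oil (diamonds) and coconut oil (circles) from beef tallow (horizontal axis, 6 pigs per fat) with 95% intervals, for the 10 member probe sets; all symbols are open because no adjusted p was under 0.05. PPARGC1A lies to the right of 0 with all 3 oils, at 0.92, 0.66 and 1.55.

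The intervals of the other members were wide. Between coconut oil and beef tallow, LPL differed by -0.35 (-0.77 to 0.08) on the first probe set and -0.47 (-0.96 to 0.02) on the second, which did not pass (adjusted p = 0.353 and 0.271). FABP3 differed by 0.08 (-0.49 to 0.66), and PDK4 by 0.14 (-0.28 to 0.55) on the first probe set and 0.28 (-0.28 to 0.84) on the second probe set. UCP3 differed by -0.05 (-0.80 to 0.70) on the first probe set and 0.32 (-0.51 to 1.14) on the second probe set. ANGPTL4 differed by -0.35 (-1.13 to 0.43) and -0.39 (-1.14 to 0.35). The adjusted p of the FABP3, PDK4, UCP3 and ANGPTL4 probe sets lay between 0.576 and 0.957, and the intervals leave room for changes of 0.4 or more on the log2 scale in at least 1 direction. Between soybean oil and beef tallow the differences of these 9 probe sets lay between -0.29 (the second ANGPTL4 probe set) and 0.28 (the second UCP3 probe set), with FABP3 at 0.002 (-0.57 to 0.58). With olive oil FABP3 differed from beef tallow by -0.40 (-0.98 to 0.17), and PDK4 by 0.04 and 0.19 on its 2 probe sets.

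A further contrast set the mean of olive and soybean oil, both rich in unsaturated fatty acids, against the mean of coconut oil and beef tallow. It gave no call among the members or among all probe sets (0%). Limma gave 0 members an unadjusted p under 0.05, against 561 of all 14399 tested probe sets. The largest member difference in size was ANGPTL4 on the first probe set at -0.26, with an interval of -0.81 to 0.29. ANGPTL4 showed its widest spread with olive oil: 109, 190 and 581 in barrows, and 1269, 460 and 1165 in gilts. Olive oil against beef tallow differed by -0.72 for this probe set (-1.50 to 0.07), which did not pass (adjusted p = 0.8). These contrasts share pigs with each other.

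For LPL the comparison of coconut oil with beef tallow was also made within each sex, and neither these differences nor the test between the sexes passed. On the second probe set the coconut oil barrows had 2098, 1463 and 1765, against 3515, 5486 and 3734 in beef tallow barrows. The 3 coconut oil barrows were the 3 lowest of all 24 pigs on this probe set, and ranked 1, 2 and 4 from the lowest on the first. They did not overlap with the beef tallow barrows on either. On the second probe set coconut oil gilts had 5423, 4492 and 5051, against 2131, 6001 and 5086 in beef tallow gilts, and these ranges overlapped. Without pig 2, the beef tallow gilt at 2131, the difference in gilts turned negative on both probe sets, at -0.15 on the second and -0.04 on the first. Gaps between 3 and 3 pigs were common: 27.7% of tested probe sets had 1 between coconut oil and beef tallow barrows, and 19% between coconut oil barrows and coconut oil gilts.

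In barrows LPL differed between coconut oil and beef tallow by -1.24 ± 0.33 on the second probe set (adjusted p = 0.0525) and by -0.95 ± 0.29 on the first probe set (adjusted p = 0.0776). In this comparison 0 member probe sets passed, and 298 of all tested probe sets did (2.07%). Of these, 50 were higher (0.347%) and 248 lower (1.72%) with coconut oil. An unadjusted p under 0.05 in limma was found for 3 member probe sets and for 3053 of all 14399 tested. In gilts the differences were 0.31 ± 0.33 and 0.26 ± 0.29. The difference between the sexes was -1.55 ± 0.47 on the second probe set (limma adjusted p = 0.856) and -1.21 ± 0.41 on the first probe set (adjusted p = 0.856), and no probe set of any gene passed that test (0%). With array weights 3 member probe sets passed in barrows, both of LPL and PPARGC1A. The second LPL probe set passed in 4 of the 24 runs that left out 1 pig (pig 2, 7, 8 or 12), none of them a barrow, with adjusted p from 0.0319 to 0.16 over all 24 runs.

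Markers of other cells moved along the same pair of fats, and their part in the LPL values was not tested. The adipocyte score averaged -0.68 in coconut oil barrows (-0.86 to -0.44) and 0.33 in beef tallow barrows (0.08 to 0.74). In gilts the ranges overlapped, with -0.27 for coconut oil (-0.41 to -0.12) and 0.24 for beef tallow (-0.58 to 1.05). Summed adipocyte signals ran from 9556 to 10049 in coconut oil barrows and from 20403 to 31942 in beef tallow barrows. Over both sexes, 1 of the 9 tested adipocyte markers fell with coconut oil against beef tallow, FABP4, and 7 had negative differences. The fibroblast score averaged -0.50 in coconut oil barrows and 0.71 in beef tallow barrows, and -0.41 in coconut oil gilts and 0.08 in beef tallow gilts. Over both sexes, 5 of 7 fibroblast markers fell with coconut oil, against 0.861% of all tested probe sets. The calls of this pair depended on the processing. Of 161 over all probe sets, 1 was kept with no filter and 0 in the additive model. Leaving out pig 6, 8, 16 or 21 also kept 0. The muscle fibre score was 0.08 with coconut oil and -0.01 with beef tallow.

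PPARGC1A in barrows alone differed between coconut oil and beef tallow by 1.95 with an interval of 0.65 to 3.25 (limma adjusted p = 0.0896). Of 24 runs that left out 1 pig it passed there in 1, without pig 7 (adjusted p = 0.034), and the adjusted p reached 0.266. In gilts it differed by 1.15 with an interval of -0.15 to 2.45 (adjusted p = 0.977). The ranges of the 3 and 3 pigs did not overlap in either sex, as in 27.7% of tested probe sets in barrows and 11.6% in gilts. UCP3 on the second probe set had 1330, 1085 and 888 in coconut oil barrows, against 771, 721 and 471 in beef tallow barrows. That gap came without a call (0.76, limma adjusted p = 0.452). On the first UCP3 probe set these ranges overlapped, at 605.5 to 2082.5 with coconut oil and 627.49 to 996.82 with beef tallow. In the test of fat by sex over all 4 fats, 0 member probe sets passed, as did 0 of all probe sets (0%). An unadjusted p under 0.05 in limma was found for 1 member, LPL on the second probe set, and for 895 of all 14399 tested.

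Few pathway genes passed between coconut oil and beef tallow, where 1.12% of all tested probe sets passed. The counts below are too small to set any list apart from that share. In fatty acid uptake and activation 1 of 11 fell, FABP4, the fatty acid carrier of fat cells, with medians of 5730 with coconut oil and 13114 with beef tallow and a difference of -1.09 ± 0.27 (adjusted p = 0.0483). Among 10 PGC-1 partners 1 rose, MEF2A, a muscle transcription factor that PGC-1alpha works with, with medians of 2359 with coconut oil and 1526 with beef tallow and a difference of 0.58 ± 0.14 (adjusted p = 0.0483). In glucose uptake 1 of 8 fell, HK1, a hexokinase that traps glucose in the cell, with medians of 449 with coconut oil and 883 with beef tallow and a difference of -0.96 ± 0.21 (adjusted p = 0.0413). These 3 calls depended on the processing: with no filter their adjusted p was 0.107, 0.105 and 0.0875, and without pigs 11, 16 and 12 FABP4 had 0.051. None of the 3 passed with quantile normalization or in the additive model. FABP4 passed in 4, MEF2A in 5 and HK1 in 13 of the 24 runs that left out 1 pig.

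The other lists had no call in that pair of fats. They were the lipoprotein lipase system (3 tested), droplet lipolysis (8) and pyruvate dehydrogenase (11). Also without a call were mitochondrial fatty acid entry with its brake (5), uncoupling and carrier proteins (6) and upstream signals (15). Of the uncoupling and carrier list, SLC25A11, a carrier of oxoglutarate and malate, and SLC25A12, a carrier of aspartate and glutamate, had differences of 0.40 (-0.05 to 0.86) and 0.34 (-0.03 to 0.71), which did not pass. CRAT differed by 0.50 (adjusted p = 0.133) and CPT1A by -0.48 (adjusted p = 0.296).

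The members differed in how much pigs of the same fat and sex varied. PPARGC1A had a within-group SD of 0.85 on the log2 scale, above 97.9% of all tested probe sets, where the median was 0.32. UCP3 (0.69 and 0.75) and ANGPTL4 (0.72 and 0.68) were also above at least 94.9% of them. FABP3 had 0.52, LPL 0.37 and 0.43, and PDK4 0.36 and 0.50. Coconut oil gilts were alike in some members: their coefficient of variation was 3.42% for FABP3, 1.39% and 6.19% for PDK4 and 7.1% for LPL on the first probe set, but 52.9% for UCP3 on the first probe set.

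To see which members varied together, correlations were computed over the 24 pigs on deviations from the mean of each pig's fat and sex, for all 15 pairs of genes with the brightest probe set of each. ANGPTL4 and UCP3 were the pair that passed: r = 0.74 and Spearman rho = 0.67 (permutation p = 0.00164 and 0.00506, adjusted over 15 pairs 0.0246 and 0.0759). Without pigs 19 and 22, the farthest in ANGPTL4, r was 0.68 (permutation p = 0.01495), and it was 0.72 in 12 barrows and 0.81 in 12 gilts. The relation passed in 16 of the 24 runs that left out 1 pig, but not without pig 4, 6, 7, 12, 17, 18, 19 or 23 (adjusted p up to 0.113), with r from 0.65 to 0.78. On log2 values as they are, with the differences between groups left in, r was 0.08.

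The other 14 pairs did not pass. FABP3 with PPARGC1A had r = 0.58 (permutation p = 0.0279, adjusted 0.202; rho = 0.49) and FABP3 with PDK4 had r = 0.52 (permutation p = 0.0405, adjusted 0.202; rho = 0.44). LPL and its inhibitor ANGPTL4 had r = -0.12 over all pigs (permutation p = 0.645; rho = -0.13), and -0.41 without pigs 2 and 7, gilts that lay farthest in LPL (permutation p = 0.113). By sex, that pair had r = -0.73 in barrows (permutation p = 0.00577) and 0.55 in gilts (permutation p = 0.199). Those p are not adjusted, and the difference between the sexes was not tested.

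**Figure D5:**
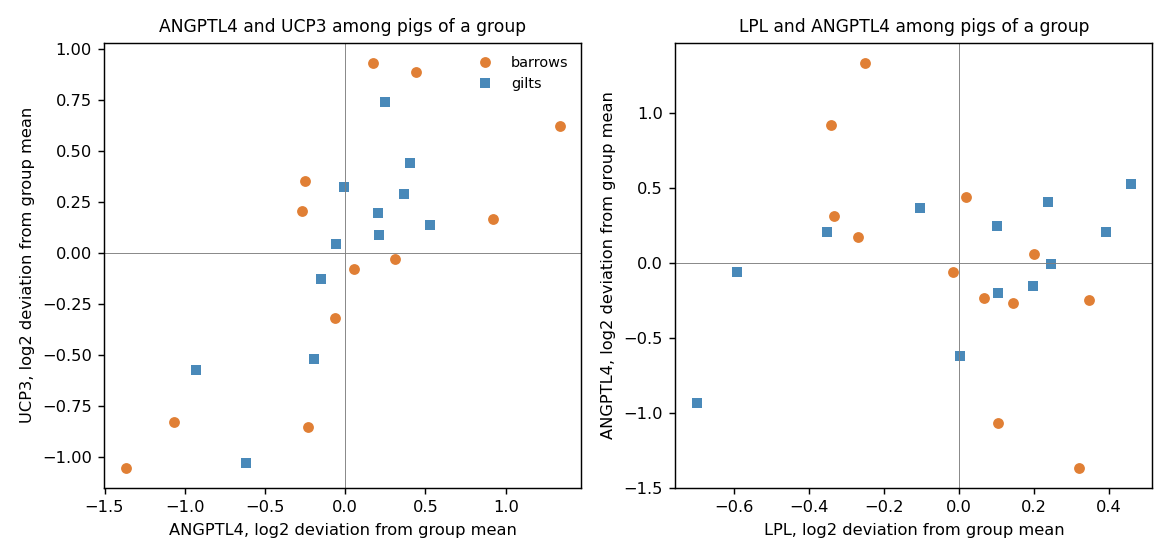
Deviations of each pig from the mean of its fat and sex, in log2 units on both axes, for ANGPTL4 against UCP3 (left) and LPL against ANGPTL4 (right), with barrows as circles and gilts as squares. ANGPTL4 and UCP3 rise together in both sexes (r = 0.74). LPL and ANGPTL4 had r = -0.73 in barrows (permutation p = 0.00577) and 0.55 in gilts (permutation p = 0.199), both p not adjusted.

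Among 7244 other tested probe sets with a gene symbol, the genes most like each member were taken by r of the same deviations over 24 pigs, as a description. FABP3 was followed most closely by ATP5G3 (0.87), HADHB (0.86) and IMMT (0.85). PDK4 was followed by ETFDH (0.88), TIMM50 (0.85) and CPT1B (0.84), and PPARGC1A by DDIT3 (0.87), SLC25A5 (0.84) and VEGFA (0.81). For LPL they were SLC25A1 (0.84), ALDOC (0.82) and SLC22A3 (0.81). ANGPTL4 had the second UCP3 probe set at the top (0.83), then MRM2 (0.79), and UCP3 on its first probe set had MBP (0.77) and PKP4 (0.74) beside a locus with no gene name. All these values share the same arrays and their scaling.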

How the data were processed

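The deposited values were probe set signals, a linear array intensity, for 24 pigs. How probes were summarised is not given in the sources used, per the labels and headers. Checked on the values, every array had a 2% trimmed mean of 500.1 to 500.2 and a median of 139 to 174, so a common scaling without quantile normalization was at work. Of 24123 probe sets 124 were controls. Signals became log2(signal + 1), and 14399 probe sets whose mean reached the 40th percentile, equal to a signal of 86.3, entered the fit (limma 3.58.1, R 4.3.3) of 8 means of fat and sex, two-sided. Genes were named from the platform annotation, and a gene with several probe sets was represented by the brightest. Pathway genes are named where they passed, otherwise the 2 with the smallest p over the fats. Relations used 100000 permutations of pigs within groups (numpy 2.4.6). The fit was tested on simulated data. The members, lists and tests were chosen with earlier results of these data known. The labels share no replicate numbers between groups, so nothing was paired. Precision is limited by how many pigs there are, since arrays hold no counts. Alternatives were other filters, scalings, pseudocount and models, array weights, leaving out each pig and, chosen after seeing the data, leaving out 3 arrays.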

Additional observations from a re-analysis of the deposited data

Results flagged for a closer look

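Pig 19, a soybean oil barrow, stood apart from the other 5 soybean oil pigs in ANGPTL4. On the first probe set its signal was 181, against 637 to 1086 in the other 5, and on the second it was 167, against 541 to 864. The gap to the nearest pig was 0.701 and 0.715 of the range of the group on the log2 scale, above Dixon's critical ratio of 0.625 for 6 pigs. Of 40 groups of 6 pigs examined, 2 were flagged, no more than the about 1 in 20 that chance alone gives. The 2 flagged probe sets report the same gene, and each group held both barrows and gilts. The same pig had the lowest UCP3 signals of the soybean oil group, 439 and 254.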

How the results depend on the processing

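No paired analysis was possible because the groups share no replicate numbers. The 4 member calls between barrows and gilts numbered 1 (FABP3) with no filter and 1 without the 3 least correlated arrays, and 4 to 5 when each pig was left out. Over all probe sets that comparison gave 302 calls with no filter, 1530 with array weights, 416 without the 3 arrays and 386 to 1057 leaving out each pig. The 161 calls between coconut oil and beef tallow became 6 with no filter, 279 with the filter at the 60th percentile, 51 with quantile normalization, 0 in the additive model, 1264 with array weights, 260 without the 3 arrays and 0 to 664 leaving out each pig. In that pair 1 member, PPARGC1A, passed with array weights, and 0 to 1 leaving out each pig. In barrows the 298 calls became 0 with no filter, 91 with quantile normalization, 619 with array weights, 3 without the 3 arrays and 0 to 747 leaving out each pig. The member calls there, 0 as reported, were 1 with the filter at the 60th percentile, 1 with a pseudocount of 16, 3 with array weights and 0 to 3 leaving out each pig. The test over 4 fats gave 4 calls with no filter, 68 with array weights and 0 to 25 leaving out each pig. Olive oil against coconut oil gave 2 with no filter and 0 to 1 leaving out each pig, and soybean oil against coconut oil gave 3 with no filter, 5 with array weights, 3 without the 3 arrays and 0 to 4. Coconut oil against beef tallow in gilts gave 1 with no filter, 1 with array weights and 0 to 1, and the difference of that pair between the sexes gave 1 with array weights. Leaving out each pig gave 0 to 7 for olive oil against beef tallow, 0 to 2 for fat by sex, and 0 to 1 for soybean oil against beef tallow, for soybean oil against olive oil and for the unsaturated contrast. Relations between members numbered 3 on log2 values as they are and 0 to 2 leaving out each pig. Of 110 member differences 49 changed sign in some run, none of them called; the largest of these was 0.31. The causes were not tested. Pens, sex-linked order and the small groups of 3 limit these data.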
